A study of Mus musculus with 28 samples.

Results

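The 10 genes described here are genes that mark blood vessel walls: Flt1, Kdr, Tek, Cldn5, Cdh5 and Pecam1 of endothelial cells, Pdgfrb of pericytes, and Pdgfb, Ephb4 and Thsd1, which are also made by endothelial cells. They were taken by gene symbol from a series that lists 14879 genes over 2 tables, and each of the 10 was listed in both tables. Pdgfb, Ephb4 and Thsd1 were picked because their values were lower in mutant embryos, so their embryonic differences between genotypes are given with no test. Only their variation within genotypes, with the genotype means removed, was tested in embryos. The other 7 genes were named as cell type markers.

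The mice carried a knockout of Myt1l, a zinc-finger factor found in neurons, and the series asked how its loss changes the transcriptome of developing and adult brain. Embryonic cortex at the E14.5 stage gave 16 libraries, of which 6 were wild type (WT), 6 heterozygous (Het) and 4 homozygous (Hom). Adult prefrontal cortex (PFC) gave 12 libraries, 6 WT and 6 Het. Every library carries its own animal identifier and a sex, and is named here by sex letter and number. Neither the adult age nor the design of the knockout allele is stated in these sources, and the labels do not say which animals shared a litter. RNA came from whole tissue, so fewer vascular cells and less RNA per vascular cell cannot be told apart.

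Brain capillaries are tubes of endothelial cells, sealed by tight junctions and wrapped by pericytes. Vessels grow into the embryonic cortex along gradients of VEGF, which endothelial cells sense through Kdr and Flt1, and sprouting endothelial cells release PDGF-B, which recruits pericytes through Pdgfrb. Tek is the receptor for angiopoietins, which steady young vessels, and Ephb4 is a receptor for ephrin-B2 that marks venous endothelium.

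The stretches upstream of the gene start are shown for 5 of these genes: Kdr, Flt1, Thsd1 and Tek, which followed other endothelial genes among the embryonic libraries, and Ephb4, which did not. A RefSeq entry was matched and used for 6 of the 10 genes: Flt1, Kdr, Tek, Cldn5, Ephb4 and Thsd1. The sequences are the 250 bases before the RefSeq start on GRCm38.p6, written 5′ to 3′ on the strand of the gene, at chr5:75978456-75978705 (minus strand) for Kdr, chr5:147726012-147726261 (minus strand) for Flt1, chr4:94739039-94739288 (plus strand) for Tek, chr8:22227053-22227302 (plus strand) for Thsd1 and chr5:137349859-137350108 (plus strand) for Ephb4. Capitals mark matches to GGAAG or its reverse complement CTTCC, the core recognised by ETS factors such as Erg and Fli1 of endothelial cells, and to AAGTT or its reverse complement AACTT, the core recognised by the MYT1 family.
Kdr: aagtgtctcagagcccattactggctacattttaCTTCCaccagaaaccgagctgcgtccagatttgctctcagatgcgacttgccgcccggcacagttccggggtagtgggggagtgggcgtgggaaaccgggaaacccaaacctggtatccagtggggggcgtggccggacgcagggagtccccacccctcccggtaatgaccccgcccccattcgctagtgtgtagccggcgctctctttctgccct
Flt1: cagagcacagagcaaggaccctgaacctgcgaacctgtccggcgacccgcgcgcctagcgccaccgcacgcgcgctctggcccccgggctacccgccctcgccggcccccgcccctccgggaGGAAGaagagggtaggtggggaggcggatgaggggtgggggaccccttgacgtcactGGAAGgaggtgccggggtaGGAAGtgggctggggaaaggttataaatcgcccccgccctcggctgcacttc
Tek: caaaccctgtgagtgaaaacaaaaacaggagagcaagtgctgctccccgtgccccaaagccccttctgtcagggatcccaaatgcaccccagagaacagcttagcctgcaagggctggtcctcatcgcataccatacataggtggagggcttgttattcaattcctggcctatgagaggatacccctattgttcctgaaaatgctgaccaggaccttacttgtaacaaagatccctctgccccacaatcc
Thsd1: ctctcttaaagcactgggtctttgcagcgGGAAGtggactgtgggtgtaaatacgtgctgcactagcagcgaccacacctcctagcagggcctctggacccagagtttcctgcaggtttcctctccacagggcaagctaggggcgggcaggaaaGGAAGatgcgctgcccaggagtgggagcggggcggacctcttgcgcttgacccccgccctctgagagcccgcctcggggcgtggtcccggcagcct
Ephb4: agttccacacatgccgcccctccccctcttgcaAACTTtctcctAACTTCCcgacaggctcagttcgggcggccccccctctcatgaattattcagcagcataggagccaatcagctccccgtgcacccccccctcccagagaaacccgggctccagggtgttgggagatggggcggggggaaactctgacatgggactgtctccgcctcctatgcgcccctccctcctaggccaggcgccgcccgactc
GGAAG was matched 1 time in the Kdr stretch, 3 times in that of Flt1, 2 times in that of Thsd1 and 1 time in that of Ephb4. It had no match in those of Cldn5 and Tek. Matches to GGAA alone, which the Tek stretch holds as its reverse complement TTCC, were not counted. The MYT1 family core was matched 2 times upstream of Ephb4, with first bases 217 and 206 bases before the start, and in none of the other 5. The second of these matches overlaps the GGAAG match of Ephb4, so that they share a run of capitals. Of 32851 stretches of the same length, 64.1% hold GGAAG and 35.3% the MYT1 family core, each on either strand. A match is a description of letters, not of binding.

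Values are CPM, counts scaled to the size of the library, recovered from the deposited log2 table of each tissue. Differences are given as log2(CPM + 0.5) with the standard error (SE) of the limma fit over all genes, and a gene is called changed when its Benjamini-Hochberg adjusted p over all tested genes is under 0.05. Myt1l itself had a mean of 55.5 ± 8.16 CPM (SD, n = 6) in WT embryos, 42.8 ± 11.1 (n = 6) in Het and 20.2 ± 2.35 (n = 4) in Hom, and of 158 ± 8.48 (n = 6) in WT and 114 ± 6.70 (n = 6) in Het adults. In embryos its difference from WT was called in Hom (-1.43, SE 0.16, limma adjusted p = 0.000112) but not in Het (-0.39, SE 0.15, limma adjusted p = 0.125). Het and WT embryos overlapped for Myt1l, with Het F02 at 59.5 CPM and the lowest WT library at 45.9 CPM. In 2 embryonic libraries the Y-linked transcript Ddx3y went against the sex label: Het F10, labelled female, had 21.6 CPM, and Het M11, labelled male, had 0. All 9 genes of a list of embryonic cortex markers were listed and tested at E14.5, and so were all 8 of a list of adult cortex markers in the PFC. The animal identifiers begin with a prefix shared by several animals, and some differences are also given within the most common prefix alone (one identifier prefix). A WT embryo also stood apart for these genes, since WT F06 was the lowest of its group for 8 of the 10 and the highest for Ephb4. Het M01 was the lowest Het library for 7 of the 10, Hom F01 the lowest Hom library for 8, and Het M11 the highest Het library for 6.

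Per kilobase of the longest transcript, Pecam1 had the highest mean level in WT embryos, with 6.27 ± 1.32 CPM per kb (SD, n = 6), followed by Cldn5 with 4.28 ± 2.67 and Kdr with 3.19 ± 0.809. Pdgfrb (2.63), Ephb4 (2.62), Thsd1 (2.16), Cdh5 (1.57), Tek (1.36) and Pdgfb (1.22) came next in mean CPM per kb, and Flt1 was lowest with 0.622 ± 0.181. No gene in this order was separated from its neighbour, since the ranges of each adjacent pair overlapped. In WT adults the order was led by Cldn5 with 25.4 ± 4.61 CPM per kb and Pdgfb with 7.46 ± 1.03, ahead of Pecam1 (2.29) and Flt1 (1.38), and the ranges of these 4 did not overlap between neighbours. From Flt1 down, through Pdgfrb, Tek, Cdh5, Kdr and Thsd1 to Ephb4 at 0.232 ± 0.143 CPM per kb, each neighbouring pair overlapped.

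**Figure D1:**
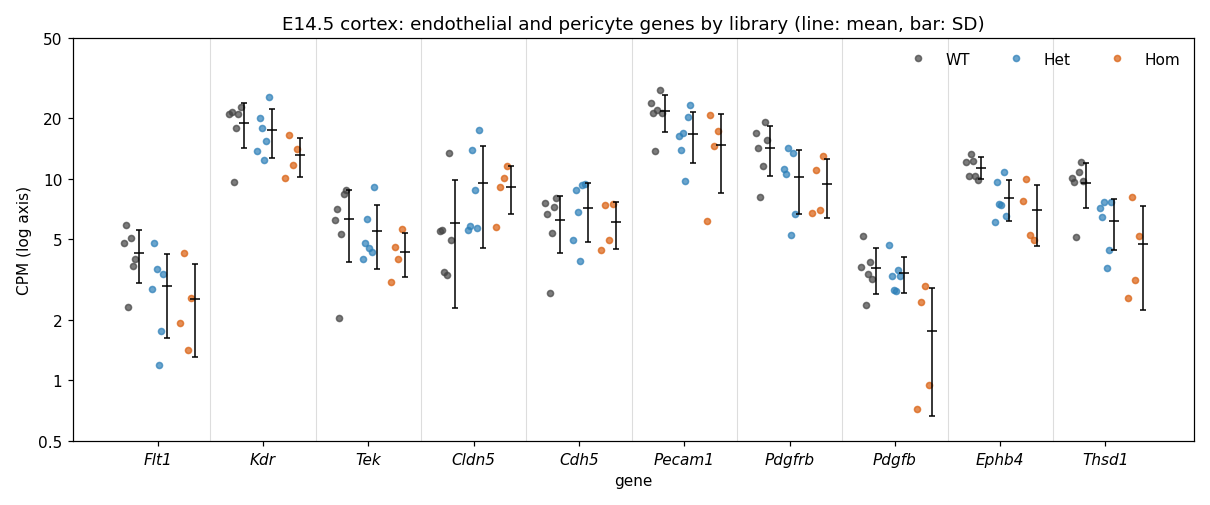
CPM on a log axis of each gene in the WT, Het and Hom E14.5 libraries (1 point a library), with a line and bar for mean ± SD. The low WT point for Kdr, Tek, Cdh5 and Thsd1 is library F06, and the 2 lowest Pdgfb values, 0.718 and 0.942 CPM, are Hom libraries.

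The VEGF receptors Kdr and Flt1 had lower means in mutant embryos without reaching the threshold. Kdr, the main signalling receptor for VEGF-A, ran from 9.68 through a median of 21.0 to 22.6 CPM in WT and from 12.3 through 16.5 to 25.4 in Het, and stood at 10.0, 11.7, 14.1 and 16.4 CPM in the 4 Hom libraries. All 4 Hom values lay below the WT mean of 18.9 CPM, but the WT library F06 was lower than each of them, so the groups overlapped. Its difference between Hom and WT was -0.50 (SE 0.22, adjusted p = 0.177), and between Het and WT -0.15 (SE 0.21, adjusted p = 0.724). Without WT F06 the Hom difference was -0.67 and passed the threshold (adjusted p = 0.0252). This was the 1 of 831 alternative results for members under test with an adjusted p below 0.05, and its range over the alternatives run ran from -0.67 to -0.40. Flt1, which binds VEGF with high affinity and limits its access to Kdr, ran from 2.30 through 4.39 to 5.89 CPM in WT and from 1.19 through 3.11 to 4.79 in Het. Its Hom libraries were at 1.42, 1.91, 2.56 and 4.26 CPM, of which 2 lay below every WT library. The Flt1 difference was -0.66 (SE 0.29, adjusted p = 0.161) for Hom against WT and -0.42 (SE 0.27, adjusted p = 0.381) for Het against WT. Without Hom F09 the Flt1 difference in Hom was -0.43 (adjusted p = 0.448).

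Tek, the angiopoietin receptor, ran from 2.03 through 6.65 to 8.84 CPM in WT and from 4.00 through 4.66 to 9.08 in Het, and was at 3.07, 3.99, 4.61 and 5.62 CPM in Hom. The Hom values lay inside the WT range, whose low end is again F06. Against WT, the difference was -0.45 (SE 0.28, adjusted p = 0.351) in Hom and -0.25 (SE 0.26, adjusted p = 0.619) in Het. Leaving out WT F06 moved these to -0.69 and -0.48, and neither passed (adjusted p = 0.0532 and 0.169).

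Of the 3 junction and adhesion genes, none was called, and their mean differences had different signs. Cldn5, the claudin of endothelial tight junctions, had a higher mean in mutants: WT libraries ran from 3.32 through 5.25 to 13.5 CPM, Het libraries from 5.59 through 7.30 to 17.4, and Hom libraries were at 5.77, 9.11, 10.1 and 11.6. Its difference from WT was 0.65 (SE 0.38, adjusted p = 0.338) in Hom and 0.55 (SE 0.36, adjusted p = 0.402) in Het. The 2 highest Het values of Cldn5, 13.9 and 17.4 CPM, were those of F10 and M11, whose Y-linked transcripts go against their labels, and without both the Het difference was 0.15 (adjusted p = 0.819). Cdh5, the cadherin of endothelial adherens junctions, had means of 6.26 ± 1.96 (SD, n = 6), 7.19 ± 2.35 (n = 6) and 6.08 ± 1.60 CPM (n = 4) in WT, Het and Hom. The 95% interval of the Cdh5 difference between Hom and WT ran from -0.57 to 0.52. Pecam1, an adhesion molecule that lines endothelial contacts, ran from 13.7 through 21.6 to 27.6 CPM in WT and from 9.69 through 16.6 to 23.3 in Het, and was at 6.15, 14.6, 17.3 and 20.8 in Hom. The WT mean of 21.6 CPM lay above each Hom library and above 5 of 6 Het libraries. The Pecam1 difference was -0.64 (SE 0.31, adjusted p = 0.225) in Hom and -0.43 (SE 0.29, adjusted p = 0.413) in Het. Without Hom F01, the lowest library, the Pecam1 difference in Hom was -0.28 (adjusted p = 0.540), and with only one identifier prefix that in Het was -0.16 (adjusted p = 0.936).

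Pdgfrb, the receptor by which pericytes respond to PDGF-B, ran from 8.13 through 14.8 to 19.2 CPM in WT and from 5.29 through 10.9 to 14.2 in Het, and was at 6.76, 6.96, 11.1 and 13.0 CPM in Hom. Every mutant library of either genotype lay below the WT mean of 14.3 CPM, while 2 Het and 2 Hom libraries lay below the lowest WT library. Over all tested genes, 9.8% had every Het library below the WT mean and 19.3% had every Hom library there. The difference was -0.57 (SE 0.29, adjusted p = 0.248) in Hom and -0.46 (SE 0.27, adjusted p = 0.328) in Het. Its ligand gene Pdgfb, picked for a low value in mutants, ran from 2.37 through 3.51 to 5.17 CPM in WT and from 2.78 through 3.29 to 4.68 in Het, and was at 0.718, 0.942, 2.46 and 2.94 CPM in Hom. The 2 lowest Hom values, of F01 and M02, lay below every other embryonic library, while F04 and F09 lay inside the WT range. The Pdgfb difference was -0.94 (SE 0.26) for Hom against WT and 0.03 (SE 0.24) for Het against WT, so the low values stood in Hom and not in Het. With a pseudocount of 2 the Pdgfb difference in Hom was -0.59.

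Ephb4 and Thsd1, also picked, had lower means in both mutant groups. Ephb4 ran from 9.86 through 11.2 to 13.3 CPM in WT and from 6.07 through 7.43 to 10.7 in Het, and was at 4.98, 5.24, 7.76 and 10.0 CPM in Hom. Of its 10 mutant libraries, 5 Het and 3 Hom lay below every WT library, and Het M07 and Hom F04 lay inside the WT range. The Ephb4 difference was -0.69 (SE 0.18) in Hom and -0.45 (SE 0.17) in Het. Thsd1, a thrombospondin repeat protein found at endothelial adhesions, ran from 5.11 through 9.88 to 12.1 CPM in WT and from 3.59 through 6.79 to 7.67 in Het, and was at 2.56, 3.14, 5.18 and 8.15 CPM in Hom. For Thsd1, 2 Het and 2 Hom libraries lay below every WT library. The WT library F06, at 5.11 CPM, lay inside the range of both mutant groups, so the groups overlapped. The Thsd1 difference was -1.002 (SE 0.28) in Hom and -0.56 (SE 0.26) in Het. With only one identifier prefix the Thsd1 difference in Het was -0.37.

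Set against all genes, the share of called genes was 7.6% for Hom against WT, 5.83% for Het against WT and 0.00805% for Hom against Het. None of the 7 members under test was called in any of these comparisons by limma, and at an unadjusted p under 0.05 the counts were 2 of 7 for Hom against WT (Flt1 and Kdr), 0 of 7 for Het against WT and 0 of 7 for Hom against Het. Over all tested genes the unadjusted shares were 23.2%, 22.3% and 5.12%. The comparisons with WT share the same 6 WT libraries, and their values are given side by side only. Between Hom and Het the 7 differences ran from -0.36 (Kdr, SE 0.23, adjusted p = 0.959) to 0.10 (Cldn5, SE 0.39, adjusted p = 0.991). For the picked genes the same difference was -0.97 (SE 0.26) for Pdgfb, -0.44 (SE 0.28) for Thsd1 and -0.24 (SE 0.19) for Ephb4, which was at 0.03 with only one identifier prefix.

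**Figure D2:**
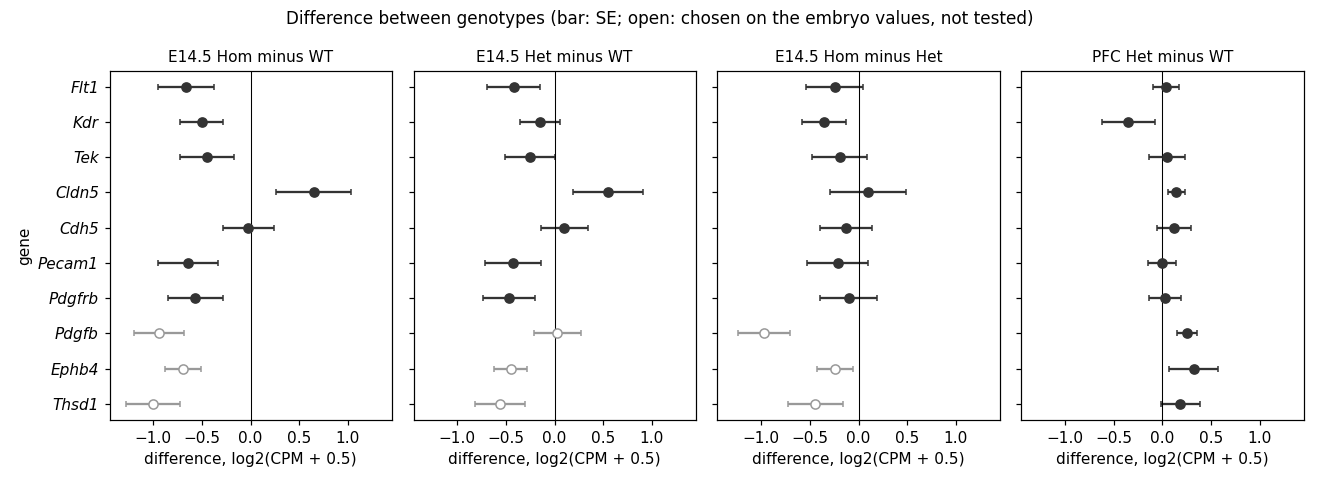
Difference between genotypes on the log2(CPM + 0.5) scale for each gene, with bars of 1 SE, in 4 comparisons. Open points are the genes picked on embryonic values, which were not tested there; in Hom against WT the filled points run from -0.66 (Flt1) to 0.65 (Cldn5), and in the PFC from -0.35 (Kdr) to 0.32 (Ephb4).

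The partners of these genes gave no call either. Of 9 other tested genes of the VEGF pathway, which include the receptor gene Flt4, 0 were called in any comparison. In Hom against WT their median difference was 0.16 beside 0.02 for all genes. Plxnd1, a semaphorin receptor of endothelium, was at -0.48 (SE 0.19, adjusted p = 0.120), and Nrp1, a VEGF co-receptor that neurons also carry, at 0.22 (SE 0.09, adjusted p = 0.146). Among the 4 tested genes around Tek, Angpt2, an angiopoietin released by endothelium, was at -0.51 (SE 0.23, adjusted p = 0.187), and Ptprb, the phosphatase that restrains Tek, at -0.62 (SE 0.26, adjusted p = 0.142). Of 4 tested genes of the PDGF family other than the members, none was called, Pdgfrl was at -0.30 in Hom (SE 0.17, adjusted p = 0.318), and Pdgfc was at 0.30 (SE 0.24) in Hom and 0.51 (SE 0.23, adjusted p = 0.178) in Het. Of 8 ephrin and Eph genes 0 were called. Efnb2, which encodes the ephrin-B2 ligand of Ephb4, was at 0.31 (SE 0.10, adjusted p = 0.0703) and the receptor gene Epha4 at -0.20 (SE 0.06, adjusted p = 0.0538) in Het against WT, and the receptor gene Ephb6 was at 0.63 (SE 0.20, adjusted p = 0.0545) in Hom against WT. The 3 relatives Thsd4, Thsd7a and Thsd7b ran from -0.04 to 0.33 in Hom against WT, and none was called.

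Beyond the members, 24 other endothelial genes were tested in the embryos, and 0 were called in Hom against WT, with 5 at an unadjusted p under 0.05 beside 23.2% of all genes. Of the 24, 20 were below 0, with a median of -0.29 beside 0.02 over all genes, of which 47.3% were below 0. Genes of a list were read in the same libraries, so such counts are not counts of independent observations. On the log scale of the fit, the mean of the 24 was 1.98 in Hom F01, 2.16 in F09, 2.39 in M02 and 2.79 in F04. In WT libraries that mean ran from 2.07 to 2.82, so the groups overlapped, and only Hom F01 lay below the WT range. Adgrl4 (-0.79, SE 0.26, adjusted p = 0.0600) and Sox18, a transcription factor of endothelium (-0.68, SE 0.25, adjusted p = 0.0932), had the lowest p-values. In Het against WT 14 of the 24 were below 0, beside 45.2% of all genes, with a median of -0.04 and no call. Of 16 other pericyte genes 11 were below 0 in Hom against WT, with a median of -0.07, and Notch3, a receptor of mural cells, was at -0.44 (SE 0.17, adjusted p = 0.103), while Rgs5, a pericyte regulator of G-protein signalling, was at 0.28 (SE 0.13, adjusted p = 0.206). Of 18 blood-brain barrier genes 12 were below 0, with a median of -0.03, and Ly6c1 was at -0.79 (SE 0.25, adjusted p = 0.0565). Slc16a1, a lactate transporter on the same list, was on the other side, at 0.41 in Hom (SE 0.13, adjusted p = 0.0600) and 0.39 in Het (SE 0.13, adjusted p = 0.0633).

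Markers of other cells were read beside these values. Summed over 10 globin and other red cell genes, the level ran from 8345 to 16210 CPM in WT embryos, from 10340 to 18520 in Het and from 7411 to 12350 in Hom, and 9 of the 10 were below 0 in Hom against WT with none called (median -0.30). Summed over 5 choroid plexus genes, it ran from 1430 to 4057 CPM in WT, from 3045 to 5281 in Het and from 1615 to 2942 in Hom, and 5 of 5 were above 0 in Het against WT with none called. Over 10 meningeal fibroblast genes the summed level ran from 215.6 to 415.7 CPM in WT, from 286.8 to 460.7 in Het and from 339.7 to 372.6 in Hom. Of the 9 tested meningeal genes, Lox, an enzyme that crosslinks collagen, was called higher in Hom (1.42, SE 0.34, adjusted p = 0.0153) and in Het (1.15, SE 0.32, adjusted p = 0.0384), and Ogn, a matrix proteoglycan, in Het (0.76, SE 0.19, adjusted p = 0.0221). The Lox call in Hom was lost without Hom F09 (1.13, adjusted p = 0.0680). In Het the Lox call was lost without any of Het M11, Het F07, WT M03, WT F06, WT F04 or Hom M02 (adjusted p from 0.0549 to 0.148), and the Ogn call without WT M03, WT F04 or Het F07 (adjusted p from 0.0566 to 0.0945). Over all alternatives run, settings of the fit included, the call was lost in 2 of 28 for Lox in Hom, 13 of 28 for Lox in Het and 6 of 29 for Ogn in Het, with the same sign in each. No gene of these 3 lists was at 0 in every library. The part of these cells in the members' values was not tested.

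Within genotypes, 7 of the 10 genes varied with the level of other endothelial genes by Pearson's r, and 4 of the 7 also by rank. The share of all tested genes that would pass the same test was not computed, so these counts have no yardstick. An endothelial index was taken as the mean log2(CPM + 0.5) of the 24 other endothelial genes, and each gene's deviation from its genotype mean was set against that of the index over the 16 embryonic libraries. Pearson's r was 0.90 for Thsd1, 0.86 for Kdr, 0.83 for Flt1, 0.82 for Cdh5, 0.77 for Pecam1, 0.73 for Pdgfrb and 0.70 for Tek (permutation test, two-sided, adjusted p from 0.00513 to 0.0172 over 20 relations). Spearman's rho ran from 0.68 (Tek) to 0.85 (Flt1) for Flt1, Kdr, Thsd1 and Tek (permutation adjusted p from 0.00720 to 0.0332), while Cdh5 (0.54), Pecam1 (0.57) and Pdgfrb (0.59) did not pass (permutation adjusted p from 0.0948 to 0.0977). Cldn5 (r = 0.46, rho = 0.61), Pdgfb (r = 0.44, rho = 0.38) and Ephb4 (r = 0.11, rho = 0.07) did not pass (permutation adjusted p of r 0.192, 0.318 and 0.886). Deviations of the index from the genotype mean were farthest from their median in WT F06 and Het M01. Leaving out both left r between 0.49 and 0.82 for the 7, and none passed after adjustment (permutation adjusted p from 0.215 to 0.377). Unadjusted, Thsd1 (r = 0.82, permutation p = 0.0215), Kdr (r = 0.71, permutation p = 0.0161) and Flt1 (r = 0.70, permutation p = 0.0340) were still under 0.05, so the adjusted calls, but not the sign or most of the size of r for these 3, rest on the 2 libraries. With the blood-brain barrier list as index, Flt1 (r = 0.35), Pdgfrb (0.50) and Thsd1 (0.56) did not pass (permutation adjusted p from 0.150 to 0.330) and Cldn5 did (r = 0.67, permutation adjusted p = 0.0344). Values of 1 library share its tissue piece, depth and normalization.

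**Figure D3:**
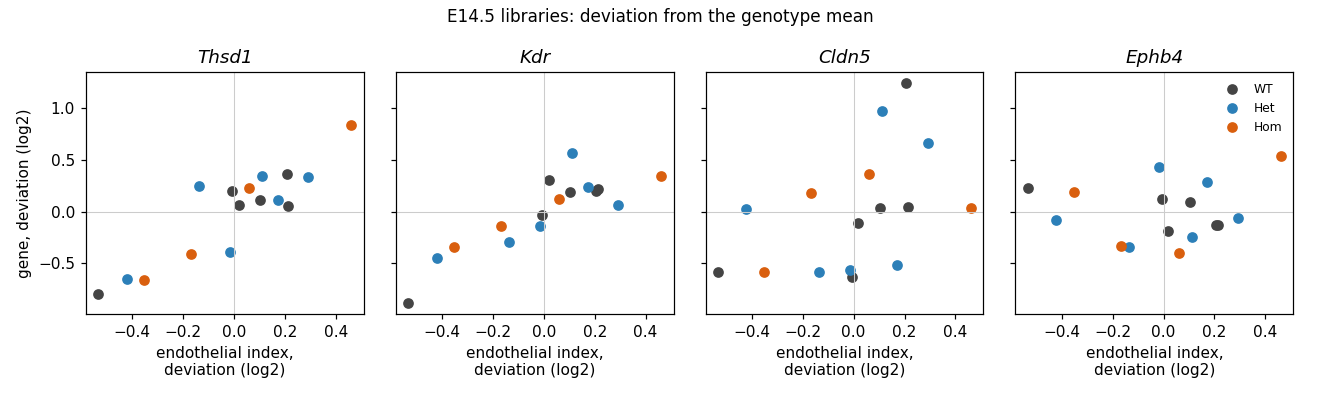
Deviation of Thsd1, Kdr, Cldn5 and Ephb4 from the genotype mean (vertical, log2) against that of the mean of 24 other endothelial genes (horizontal, log2) in 16 E14.5 libraries. Thsd1 (r = 0.90) and Kdr (r = 0.86) rise along the index, and Ephb4 (r = 0.11) does not; the leftmost WT point is F06.

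Set relative to the endothelial index of the same library, Thsd1 was at 0.68 ± 0.18 log2 units (SD, n = 6) in WT, 0.12 ± 0.28 (n = 6) in Het and -0.06 ± 0.33 (n = 4) in Hom. On that scale Kdr was at 1.62 ± 0.21, 1.56 ± 0.25 and 1.41 ± 0.08, and Cldn5 at -0.04 ± 0.55, 0.62 ± 0.64 and 0.90 ± 0.39 in the same order. Means of Flt1 were -0.39, -0.89 and -0.81, of Pecam1 1.83, 1.49 and 1.47, and of Ephb4 0.95, 0.49 and 0.52. Those of Tek were 0.05, -0.04 and -0.09, of Cdh5 0.08, 0.31 and 0.35, and of Pdgfb -0.60, -0.62 and -1.29. Relative to the like mean of 16 other pericyte genes, Pdgfrb was at 1.25, 0.74 and 0.73. The endothelial index itself was at 2.61 ± 0.28, 2.57 ± 0.25 and 2.33 ± 0.35. These are descriptions with no test, and Thsd1, Pdgfb and Ephb4 were picked on these embryonic values.

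The genes whose deviations were most like the mean of the 6 endothelial markers over the 16 embryonic libraries were Myct1 (r = 0.94), Cd34 (0.92), Clec1a (0.91), Col4a1 (0.91) and Jag1 (0.90), in Pearson's r across libraries. For Pdgfrb they were Kcnj8, a potassium channel of pericytes (r = 0.90), Necab2 (0.88), Tpp1 (0.88), St3gal6 (0.87) and Fxyd7 (0.87). In the 12 PFC libraries the 5 genes most like the endothelial mean were Tlr3 (r = 0.96), Evi2a (0.91), Ust (0.88), Oxld1 (0.87) and Bcl2l12 (0.86), of which none is on a vascular list. Those most like Pdgfrb were Klhl1 (r = 0.93), Rinl (0.91), Abca9 (0.91), Prps1l3 (0.90) and Lrrc23 (0.90). These r values were picked as the highest over all tested genes and carry no test.

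In the adult PFC, where all 10 genes were tested because the choice had not used this tissue, 0 of 10 were called between Het and WT by limma, beside 0.404% of all tested genes. At an unadjusted p under 0.05 there was 1 of 10, Pdgfb, beside 13.6% of all genes. Pdgfb, which neurons also make, ran from 17.5 through 22.4 to 25.9 CPM in WT and from 21.4 through 27.4 to 30.6 in Het. Of its Het libraries 5 of 6 lay above the WT mean and 4 above every WT library, and the difference was 0.25 (SE 0.10, adjusted p = 0.263). In embryos the Pdgfb difference between Het and WT was 0.03 (SE 0.24), and there were no Hom adults. Ephb4 ran from 0.342 through 0.925 to 2.06 CPM in WT and from 0.683 through 1.10 to 2.61 in Het, with a difference of 0.32 (SE 0.25, adjusted p = 0.593), and Thsd1 was at 0.18 (SE 0.20, adjusted p = 0.714).

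The adult genotypes overlapped for every member, Pdgfb, Ephb4 and Thsd1 included, and the share of all genes that did so is not given here. Kdr ran from 0.876 through 2.42 to 3.36 CPM in WT and from 0.976 through 1.28 to 3.89 in Het, with 5 of 6 Het libraries below the WT mean and a difference of -0.35 (SE 0.27, adjusted p = 0.588). Cldn5 ran from 25.7 through 36.9 to 44.0 CPM in WT and from 30.4 through 38.8 to 49.0 in Het, with a difference of 0.14 (SE 0.09, adjusted p = 0.483). Flt1, Tek, Cdh5, Pecam1 and Pdgfrb had differences from -0.00 (Pecam1, SE 0.14) to 0.12 (Cdh5, SE 0.17), with adjusted p from 0.802 to 0.995. The interval of the Flt1 difference ran from -0.24 to 0.31. Set against the endothelial index over the 12 PFC libraries, no gene's r passed, and r ran from -0.44 (Cldn5) to 0.56 (Thsd1), each with a permutation adjusted p of 0.192 or more. Of 22 other endothelial genes 14 were below 0, beside 46.2% of all genes, with a median of -0.03 and no call, and Sox18 (-0.61, SE 0.18, adjusted p = 0.106) had the lowest p. The globin gene Hbb-bt was called lower (-0.54, SE 0.11, adjusted p = 0.0441), a call lost without any of WT F04, M03 and M11 and Het M08, F02, F04 and F07 (Hbb-bt adjusted p from 0.0556 to 0.136), and in 12 of 23 alternatives in all. The summed level of 5 red cell genes ran from 333.2 to 576.3 CPM in WT and from 317.6 to 502.7 in Het.

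**Figure D4:**
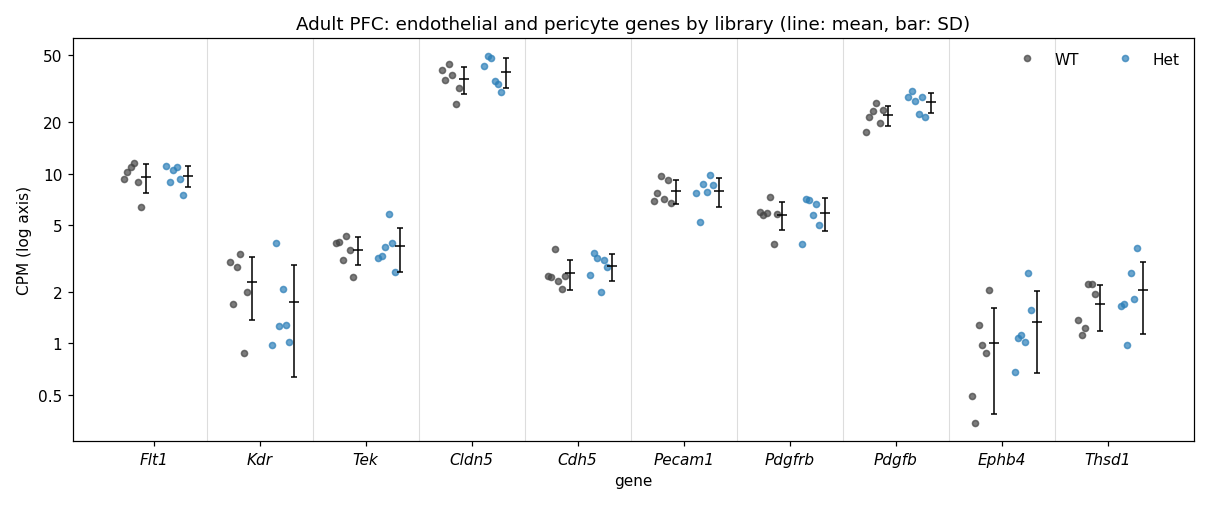
CPM on a log axis of each gene in the WT and Het PFC libraries (1 point a library), with a line and bar for mean ± SD. Cldn5 and Pdgfb are the 2 highest, with WT means of 36.0 and 22.0 CPM, and the genotypes overlap for each gene.

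A difference between the sexes was compared in the PFC after the values had been seen, with genotype as a covariate. Cldn5 was called higher in females, with 43.3 CPM (35.7 to 49.0, n = 6) against 32.4 CPM (25.7 to 38.1, n = 6) in males, a difference of 0.41 (SE 0.09, limma adjusted p = 0.0226). It was the 1 of 10 members called, beside 1.09% of all tested genes. Thsd1 ran from 0.980 to 1.70 CPM in females and from 1.82 to 3.67 CPM in males, so the sexes did not overlap, as for 1.12% of all tested genes, but the difference of -0.65 (SE 0.20, limma adjusted p = 0.0922) missed the threshold. Ephb4 was at -0.58 (SE 0.25, limma adjusted p = 0.218), and the other 7 genes had an adjusted p from 0.515 to 0.922. The Cldn5 call was lost without Het F04 (0.39, limma adjusted p = 0.0683) or Het F07 (0.40, limma adjusted p = 0.0644). In the 1 identifier prefix with both sexes, which holds 7 of the 12 libraries, the Cldn5 difference was 0.47 (limma adjusted p = 0.143). It was 0.47 with the prefix as a block (limma adjusted p = 0.157) and 0.41 without trend and robust (limma adjusted p = 0.108), and neither passed. The other prefixes hold 4 males and 1 female, and what the prefix stands for is not given.

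**Figure D5:**
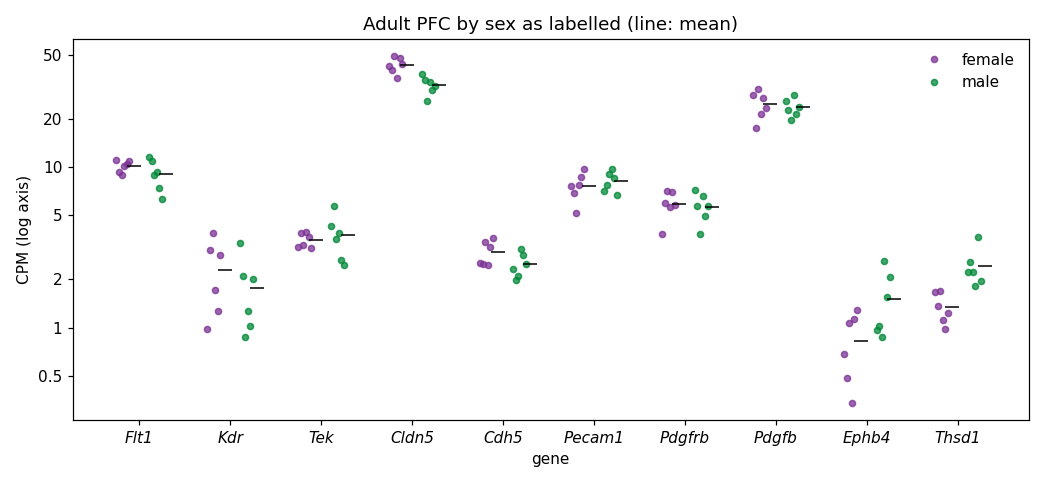
CPM on a log axis of each gene in the 6 female and 6 male PFC libraries by sex label (1 point a library), with a line for the mean. Cldn5 lies higher in females (mean 43.3 against 32.4 CPM), and the Thsd1 points of the sexes do not overlap.

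Embryonic and adult WT means are given side by side without a test, since the 2 tables were normalized separately. Cldn5 was at 6.06 CPM in the embryo and 36.0 in the adult, Pdgfb at 3.603 and 22.0, and Flt1 at 4.29 and 9.54, so these 3 were higher in the adult table. Kdr was at 18.9 CPM in the embryo and 2.30 in the adult, Ephb4 at 11.4 and 1.00, and Thsd1 at 9.56 and 1.70. Pecam1, Pdgfrb, Cdh5 and Tek were also lower in the adult table, by 2.74-, 2.49-, 2.43- and 1.78-fold.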

How the data were processed

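RNA sequencing libraries of 16 E14.5 cortices and 12 adult prefrontal cortices were analysed. Per the labels' protocols, RNA was taken with a Zymo kit and libraries made with a SMARTer Ultra Low kit. The submitters' processing notes name STAR, HTSeq, Bowtie2, Trimmomatic and the build mm10, with no versions or strand setting in these sources. The authors deposited 1 table per tissue of log2 CPM after RUVr, a method that removes unwanted variation estimated from residuals. The values invert to whole numbers with a prior count of 2 (100% within 0.01), which are scaled and adjusted and not raw reads, so depth is unknown and no count test was run. Their totals ran from 27827467 to 30811856 (E14.5) and from 19601294 to 21275162 (PFC).

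CPM was recovered, and log2(CPM + 0.5) was fitted with limma 3.58.1 in R 4.3.3 (lmFit, eBayes with trend and robust) with genotype and sex as labelled as terms, over genes reaching 1 CPM in 4 or more (E14.5) or 6 or more (PFC) libraries, which kept 12429 of 13846 and 12870 of 14104 genes. This scale understates changes of low genes. Het F10 and Het M11 entered the fit with the sex on their labels. Benjamini-Hochberg adjustment ran over all tested genes. Correlations used 100000 permutations within genotype. Both were tested on simulated data. Gene lengths came from GENCODE vM21, and figures were drawn with matplotlib 3.10.9. The members and the lists were chosen with earlier results of these data known. Beside the members, the text names up to 4 called genes per list, or up to 2 with the lowest p where none was called, and the 5 genes most like each pattern, and not all of these are printed. Alternatives changed the pseudocount, filter, covariates, normalization, libraries and fit, and those of the comparison between the sexes were chosen after seeing the data. P-values rest on the spread between libraries that was left after RUVr. RUVr had removed 2 directions of variation in the E14.5 table and 1 in the PFC table. The main fit did not count these, so p-values may be too small.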

Additional observations from a re-analysis of the deposited data

Results flagged for a closer look

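Of 50 groups of gene values examined, 4 held a library whose gap to its nearest neighbour was large against the range of the group, and chance marks about 1 in 20 groups. Cldn5 stood at 13.49 CPM in E14.5 WT F12, where the other WT libraries ran from 3.32 to 5.58 CPM. Kdr stood at 9.684 CPM in E14.5 WT F06, where the others ran from 17.9 to 22.6 CPM. Thsd1 stood at 5.113 CPM in the same library, where the others ran from 9.63 to 12.1 CPM. Cdh5 stood at 3.61 CPM in PFC WT F10, where the others ran from 2.09 to 2.50 CPM.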

How the results depend on the processing

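Of 831 alternative results for 31 tested member differences, 1 was under an adjusted p of 0.05, Kdr without WT F06. Differences near 0 changed sign. With correction for GC content and length, Cdh5 was 0.0497 for Hom against WT, and Pecam1 0.0108 and Flt1 -0.0174 in the PFC. With only one identifier prefix, Cdh5 was 0.0942 for Hom against WT, Cldn5 -0.23 for Hom against Het, and Tek -0.0137 and Pdgfrb -0.0492 in the PFC. Of the picked genes, Ephb4 was 0.03 for Hom against Het with one prefix, against -0.24. Tek was 0.04175 for Hom against Het without both libraries whose Y-linked transcripts go against the label. Leaving out each replicate in turn, Cdh5 ran from -0.216 to 0.0848 (Hom against WT), from -0.0720 to 0.232 (Het against WT) and from -0.27 to 0.0001365 (Hom against Het). Against Het, Hom ran from -0.0294 to 0.312 for Cldn5, from -0.42 to 0.11 for Pecam1 and from -0.398 to 0.0344 for Pdgfrb. In the PFC, Pecam1 ran from -0.0600 to 0.105, Flt1 from -0.0650 to 0.117, Tek from -0.0810 to 0.140 and Pdgfrb from -0.0762 to 0.150.

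Called genes numbered 944 for Hom against WT, and 68 with only one prefix, 511 with the RUVr directions added to the fit, 468 without trend and robust, and 489 to 1099 leaving out replicates. For Het against WT the 724 became 0 with only one prefix (1005 at an unadjusted p under 0.05), 379 with only the groups compared, 335 with the directions, 225 without trend, and 131 to 1177 leaving out replicates. Without both libraries whose Y-linked transcripts go against the label, 1159 were called for Hom against WT and 1086 for Het against WT. For Hom against Het the 1 became 0 under GC correction, the identifier prefix as a replicate block, one prefix, only the groups compared, the directions and without trend (401 to 666 at an unadjusted p under 0.05), and 0 to 1 leaving out replicates. In the PFC the 52 became 19 with the replicate block, 2 with no sex covariate, 185 with one prefix, 17 with the direction, 0 without trend (1637 unadjusted), and 3 to 127 leaving out replicates. The 140 genes that differed between the sexes became 9 with the block, 12 with one prefix, 62 with the direction, 10 without trend, and 31 to 276 leaving out replicates. Beside the Cldn5 sex difference, the replicate block changed no call of a member. Median centring turned the higher and lower calls from 401 and 543 to 294 and 746 (Hom), and GC correction to 299 and 564; for Het, 353 and 371 became 213 and 509, and 139 and 345; in the PFC, 23 and 29 became 20 and 51, and 22 and 20.

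With the blood-brain barrier list as index, r was 0.67 for Cldn5, which then passed, and 0.35 for Flt1, 0.50 for Pdgfrb and 0.56 for Thsd1, which no longer passed; Ephb4 was at -0.16. Without the 2 farthest libraries, r was 0.64 for Pecam1, 0.70 for Flt1, 0.71 for Kdr, 0.50 for Tek, 0.59 for Cdh5, 0.49 for Pdgfrb and 0.82 for Thsd1. In the PFC, signs turned for Kdr (0.00896 with genotype means kept, 0.0153 with a pseudocount of 2, 0.0157 without the 2 libraries), Pdgfb (-0.28 with the barrier list, -0.0434 with means kept, -0.32 without the 2), Pdgfrb (0.10 with the barrier list, 0.28 without the 2) and Cdh5 (0.0120 without the 2). The causes were not tested. Depth is unknown, so low genes such as PFC Ephb4 carry a counting error that cannot be given.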

Other observations

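Most of these genes varied more between embryos of 1 genotype than other genes of like level did. With genes within 1.2-fold of the same mean CPM as the yardstick, 10 of 10 had a within-group SD above the median of such genes in the E14.5 table, and 7 of 10 were above the 90th percentile. The SD was 0.63 for Cldn5 beside a median of 0.26 over 976 genes, 0.49 for Pecam1 beside 0.20 over 1081 genes, and 0.30 for Ephb4 beside 0.26 over 1008 genes, in log2 units. In the PFC, 8 of 10 were above the median and 2 above the 90th percentile, Cldn5 (0.28 beside 0.15) and Kdr (0.58 beside 0.38).

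Other genes of arterial and venous identity and of BMP signalling in vessels gave no call. Of 11 tested arteriovenous and Notch genes, 6 were below 0 in Hom against WT embryos with a median of -0.04. Notch1, a receptor that neural progenitors also use, was at -0.48 in Het (SE 0.15, limma adjusted p = 0.0675), and Hey1, a Notch target, was at 0.67 in Hom (SE 0.29, limma adjusted p = 0.185). Of 6 tested BMP and TGF-beta genes, Acvrl1, a BMP receptor of endothelium, was at -0.76 in Hom against WT (SE 0.37, limma adjusted p = 0.220), while 4 of the 6 were above 0 and Id3, a BMP target, was at 0.29 (SE 0.16, limma adjusted p = 0.277). Smad7, an inhibitor of TGF-beta signalling, was at 0.38 in the PFC (SE 0.13, limma adjusted p = 0.183).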
